A study of Mus musculus with 70 samples.

Results

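Ace, Treml4, Spn, Adgre4, Eno3, Pglyrp1, Gngt2 and Cd9 are 8 genes taken as identity genes of patrolling monocytes, and their transcripts were followed in leukocytes sorted from mouse blood. The members were fixed by name, with earlier results of these data known, and read from the deposited count table by Ensembl identifier. They are 8 of the 52636 genes in the table. The levels were measured in Ly6Chigh monocytes, Ly6Clow monocytes, B cells and T cells of unstressed control (CON), stress-susceptible (SUS) and resilient (RES) mice.

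All mice were C57BL/6J. The stressed mice were 7 to 8 weeks old when chronic social defeat stress (CSDS) began. In CSDS an aggressive CD-1 mouse attacks the experimental mouse each day for 10 days, and both live on either side of a divider for the rest of the day. A social interaction test on the day after the last defeat sorted the stressed mice by behaviour, so that avoiding mice were SUS and the others RES, and CON mice were never defeated. SUS and RES mice therefore shared the same treatment and were separated by an outcome. Cells were sorted into Trizol with antibodies to CD11b, Ly6C, Ly6G, B220 and CD90.2 after lysis of red cells. None of these antibodies binds the product of a member gene. The sample labels name brain as the source, while the methods and the design text describe blood. No label ties a library to a mouse, and replicate numbers below only follow the library order within a group. Libraries were therefore treated as independent, and p-values measure the spread between them. The populations were probably sorted from the same mice, which p-values between cell types do not take into account. Each group had 6 libraries, except for 4 of Ly6Clow monocytes from CON mice, 5 of B cells from RES mice and 5 of T cells from RES mice.

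Blood monocytes of the mouse form 2 main populations. Ly6Chigh, or classical, monocytes leave the marrow, are recruited to inflamed tissue and can convert into Ly6Clow monocytes in the circulation. Ly6Clow, or patrolling, monocytes crawl along the inner wall of vessels, live longer and depend on the nuclear receptor Nr4a1. The 8 genes cover several roles. Ace encodes the angiotensin-converting enzyme, a peptidase at the cell surface. Treml4 encodes a receptor of the TREM family that binds dead cells. Spn encodes CD43, a heavily glycosylated surface protein that is also abundant on T cells and is widely used to mark Ly6Clow monocytes. Adgre4 encodes FIRE, an adhesion G protein-coupled receptor, and Cd9 a tetraspanin. Eno3 encodes the muscle form of the glycolytic enzyme enolase. Pglyrp1 encodes a secreted protein that binds bacterial peptidoglycan and is stored in neutrophil granules. Gngt2 encodes a gamma subunit of heterotrimeric G proteins.

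In the GRCm38 annotation (GENCODE M21), Ace lies at chr11:105967945-105989964 on the plus strand and Treml4 at chr17:48264295-48275360 on the plus strand. Spn lies at chr7:127132232-127137823 on the minus strand and Adgre4 at chr17:55749984-55853662 on the plus strand. Eno3 lies at chr11:70657202-70662513 and Pglyrp1 at chr7:18871331-18890459, both on the plus strand. Gngt2 lies at chr11:95837216-95845734 on the plus strand and Cd9 at chr6:125460266-125494791 on the minus strand. All 8 are annotated as protein-coding. Exons of 3 members share bases with a gene on the opposite strand. Gngt2 shares 234 bases (12.5% of its exon length) with Abi3, Cd9 shares 218 bases (10.7%) with Gm26728, and Ace shares 295 bases (5.6%) with Gm11651. The strand setting of the counting is not given in the sources used here, so reads from the shared bases may belong to either gene.

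The promoters of Ace, Pglyrp1 and Treml4 are shown because they hold 2 copies of the letters of the PU.1 motif (Ace, Pglyrp1) or a long internal repeat (Treml4). PU.1 is a transcription factor that all monocytes need. The sequences are the 250 bases before the RefSeq start site on GRCm38.p6, at chr11:105967698-105967947 for the first start of Ace, chr7:18884440-18884689 for Pglyrp1 and chr17:48264045-48264294 for Treml4, all on the plus strand. Capitals mark GAGGAAG, the PU.1 letters, or its reverse complement in Ace and Pglyrp1. In Treml4 they mark both copies of an exact 40-base repeat, which begin 225 and 134 bases before the start site.
Ace: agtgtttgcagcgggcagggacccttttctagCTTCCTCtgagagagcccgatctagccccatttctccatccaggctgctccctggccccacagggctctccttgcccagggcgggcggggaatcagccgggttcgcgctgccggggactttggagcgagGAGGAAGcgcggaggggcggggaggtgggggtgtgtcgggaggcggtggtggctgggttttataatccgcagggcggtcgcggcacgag
Pglyrp1: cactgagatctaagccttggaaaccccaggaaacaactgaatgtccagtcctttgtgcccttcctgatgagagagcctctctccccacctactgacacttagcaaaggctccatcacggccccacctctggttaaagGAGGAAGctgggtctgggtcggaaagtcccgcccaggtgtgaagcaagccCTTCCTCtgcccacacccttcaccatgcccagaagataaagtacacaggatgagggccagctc
Treml4: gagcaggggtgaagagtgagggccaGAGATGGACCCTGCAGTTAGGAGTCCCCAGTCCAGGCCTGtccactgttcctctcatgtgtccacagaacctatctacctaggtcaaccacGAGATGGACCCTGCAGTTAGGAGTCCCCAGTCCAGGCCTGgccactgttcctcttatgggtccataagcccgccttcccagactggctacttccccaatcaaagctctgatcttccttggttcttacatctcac

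RefSeq promoter windows were found for 7 of the 8 members, with 2 start sites for Ace, which gave 8 windows of 250 bases before to 50 after the start. Gngt2 had no entry. The second window of Ace lies inside the gene. The start of Pglyrp1 in GENCODE lies upstream of the RefSeq start used here. Both strands were searched for 4 motifs. GAGGAAG occurred in 3 of the 8 windows (Ace, Pglyrp1 and, 43 bases after the start, Adgre4) and in 13.6% of the windows of all 32851 RefSeq promoters. CCACCC, a core of KLF motifs, occurred in 3 windows (the second of Ace, Spn and Eno3) and in 31.5% of all. Spn held it 4 times. TTGCNNAA, a core of C/EBP motifs, occurred once, in Adgre4, and in 10.8% of all. AAAGGTCA, the NR4A response element, occurred in none of the member windows and in 1.51% of all. These matches are descriptions of letters and not sites of binding. The first Ace window had a GC content of 69.7%, against a median of 52.7% over all promoters.

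The libraries held between 19769835 and 67038231 counts on genes. B and T cell libraries 52 and 70, both labelled RES, were left out by the rule that defined the members, and their markers went against their labels. The library labelled B cells had a Cd3e level of 352 and a Cd79a level of 4.91 in CPM (counts scaled to a common library size), and the library labelled T cells had 0.109 and 1079. Their Spn levels, 779.8 CPM in the library labelled B cells and 57.2 CPM in the library labelled T cells, likewise fell within the range of the other cell type. No 2 libraries of a group held identical values. Levels below are CPM after TMM normalization over the remaining 68 libraries, which scales each library to its effective size.

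The T cell libraries fell into 2 sets by library number, with the cut placed after the values were seen. In the 7 libraries numbered 53 to 59 (3 CON, 2 SUS and 2 RES), Ace lay between 10.9 and 19.7 CPM, while in the 10 libraries numbered 60 to 69 (3 CON, 4 SUS and 3 RES) it lay between 0.117 and 0.5995 CPM. Treml4 lay between 1.32 and 4.96 CPM in the first set and between 0 and 1.20 CPM in the second, and Adgre4 between 1.78 and 7.90 CPM and between 0 and 0.197 CPM. These 3 genes did not overlap between the sets, whereas Spn, Eno3, Pglyrp1, Gngt2 and Cd9 did. The monocyte genes Lyz2, Csf1r and Fn1 were separated in the same way. Lyz2 lay between 47.2 and 321 CPM in libraries 53 to 59 and between 3.01 and 6.10 CPM in libraries 60 to 69. Because the cut was drawn from these values, the separation is only a description. The share of all genes that do not overlap across it was not counted. The labels do not call these numbers a batch, and their part in the T cell results was not tested. Results that rest on these libraries are given with and without them.

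**Figure D1:**
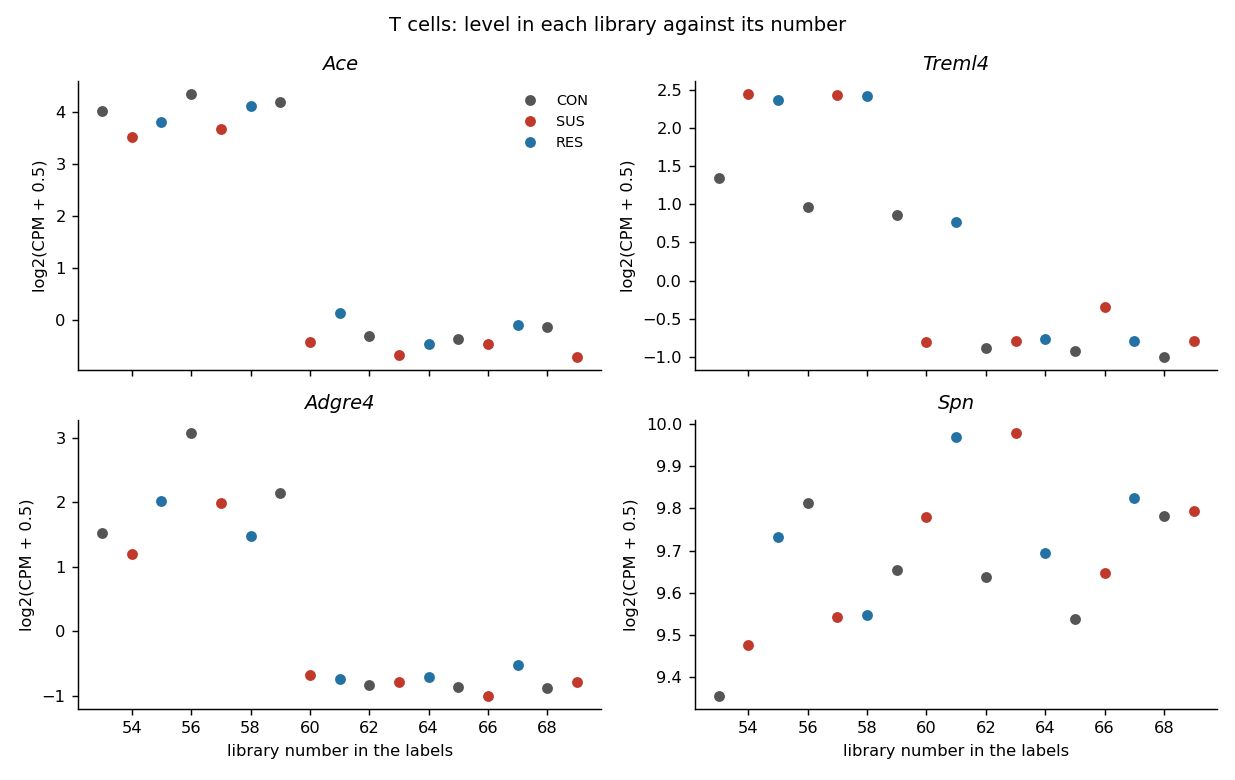
Levels of Ace, Treml4, Adgre4 and Spn in the 17 T cell libraries, plotted as log2(CPM + 0.5) against the library number in the labels, with colours for CON, SUS and RES mice and 1 point per library. Ace, Treml4 and Adgre4 stepped down between libraries 59 and 60 in all 3 groups, whereas Spn did not.

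To describe the members in the sorted populations, Ly6Clow monocytes were compared with each of the other cell types. The members were chosen with earlier results of these data known, so this comparison is not an independent check of them. All 8 members were higher in Ly6Clow monocytes than in Ly6Chigh monocytes, B cells and T cells. A gene was called at a Benjamini-Hochberg adjusted p-value under 0.05 in edgeR's quasi-likelihood test and an absolute log2 fold change above 1. By this rule 16.6% of the 24248 genes tested were called higher against Ly6Chigh monocytes, and against lymphocytes these were 21.5% (B cells) and 19.1% (T cells). The median log2 fold change of the members was 3.06, 5.07 and 5.29 in that order, against medians of 0.22, 0.12 and 0 over all genes tested. In these bulk samples, fewer cells of a type and less RNA per cell cannot be told apart.

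The surface receptors and the peptidase showed the widest separation from lymphocytes. Ace reached 2174 to 3133 CPM in the 16 Ly6Clow libraries (median 2685), 95.7 to 384 CPM in the 18 Ly6Chigh libraries (median 243), 0.203 to 3.25 CPM in the 17 B cell libraries and 0.117 to 19.7 CPM in the 17 T cell libraries. The lowest Ly6Clow library was 5.67-fold above the highest Ly6Chigh library. The log2 fold change against Ly6Chigh monocytes was 3.59 (SE 0.49, adjusted p = 9.79e-09). Treml4 lay between 383 and 647 CPM in Ly6Clow monocytes (median 523) and between 28.3 and 82.8 CPM in Ly6Chigh monocytes (median 53.2). It was at most 1.12 CPM in B cells and 4.96 CPM in T cells, so that no other library came near the Ly6Clow range. Adgre4 lay between 694 and 950 CPM in Ly6Clow monocytes (median 776) and between 28.5 and 179.9 CPM in Ly6Chigh monocytes (median 110.1). Its B and T cell levels were at most 3.27 and 7.90 CPM. Against Ly6Chigh monocytes, the log2 fold change was 3.31 for Treml4 (SE 0.39) and 2.81 for Adgre4 (SE 0.41).

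Against B cells the log2 fold changes were 10.83 for Ace, 10.39 for Treml4 and 10.66 for Adgre4, and against T cells 8.77, 8.42 and 9.09. The values against T cells rested on libraries 53 to 59. Without these 7 libraries they were 13.09 for Ace, 11.97 for Treml4 and 13.16 for Adgre4.

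Spn was second highest in T cells. It lay between 1378 and 2067 CPM in Ly6Clow monocytes (median 1788), between 655 and 1008 CPM in T cells (median 828), between 185 and 456 CPM in Ly6Chigh monocytes (median 312) and between 36.7 and 80.4 CPM in B cells (median 51.0). None of these ranges overlapped. The log2 fold change was 2.48 against Ly6Chigh monocytes (SE 0.10), 5.04 against B cells (SE 0.11) and 1.08 against T cells (SE 0.10, adjusted p = 1.01e-15). The last value passed the fold threshold narrowly. Within CON mice alone it was 0.99, and without T cell libraries 53 to 59 it was 0.98, both under the threshold.

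Cd9 lay between 79.6 and 144 CPM in Ly6Clow monocytes (median 96.3), between 10.5 and 25.0 CPM in T cells, between 3.07 and 14.0 CPM in B cells and between 1.51 and 7.77 CPM in Ly6Chigh monocytes. Ly6Chigh monocytes thus had the lowest mean of the 4 cell types, at 4.86 ± 1.92 CPM (SD, n = 18), although their range overlapped that of B cells, and the range of B cells overlapped that of T cells. The lowest Ly6Clow library was 10.2-fold above the highest Ly6Chigh library, the widest gap of the 8 genes between the monocytes. Between the monocyte populations, the log2 fold change was 4.39 (SE 0.18).

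Eno3 lay between 159 and 297 CPM in Ly6Clow monocytes (median 225) and between 2.29 and 17.1 CPM in the libraries of the other 3 cell types, whose ranges overlapped. Its log2 fold change was 4.65 against Ly6Chigh monocytes (SE 0.20), the largest of the 8, 5.11 against B cells and 4.55 against T cells. Pglyrp1 lay between 94.1 and 175 CPM in Ly6Clow monocytes (median 132). It lay between 15.9 and 33.6 CPM in B cells, between 10.3 and 56.0 CPM in Ly6Chigh monocytes and between 8.33 and 18.3 CPM in T cells, and neighbours in this order overlapped. Its log2 fold change was 2.59 against Ly6Chigh monocytes (SE 0.14), 2.30 against B cells (SE 0.14) and 3.34 against T cells (SE 0.15).

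Gngt2 was the member closest between the monocyte populations. It lay between 177 and 306 CPM in Ly6Clow monocytes (median 243), and between 63.7 and 214 CPM in Ly6Chigh monocytes (median 123). Among lymphocytes it lay between 6.30 and 17.4 CPM in B cells and between 1.28 and 8.84 CPM in T cells. It was the only member whose Ly6Clow and Ly6Chigh ranges overlapped. The share of all genes without overlap between these monocyte populations was not counted. Between them, the log2 fold change was 1.05 (SE 0.15, adjusted p = 1.21e-08). It was 1.54 within CON mice, but 0.72 within SUS mice and 0.90 within RES mice, both under the fold threshold.

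**Figure D2:**
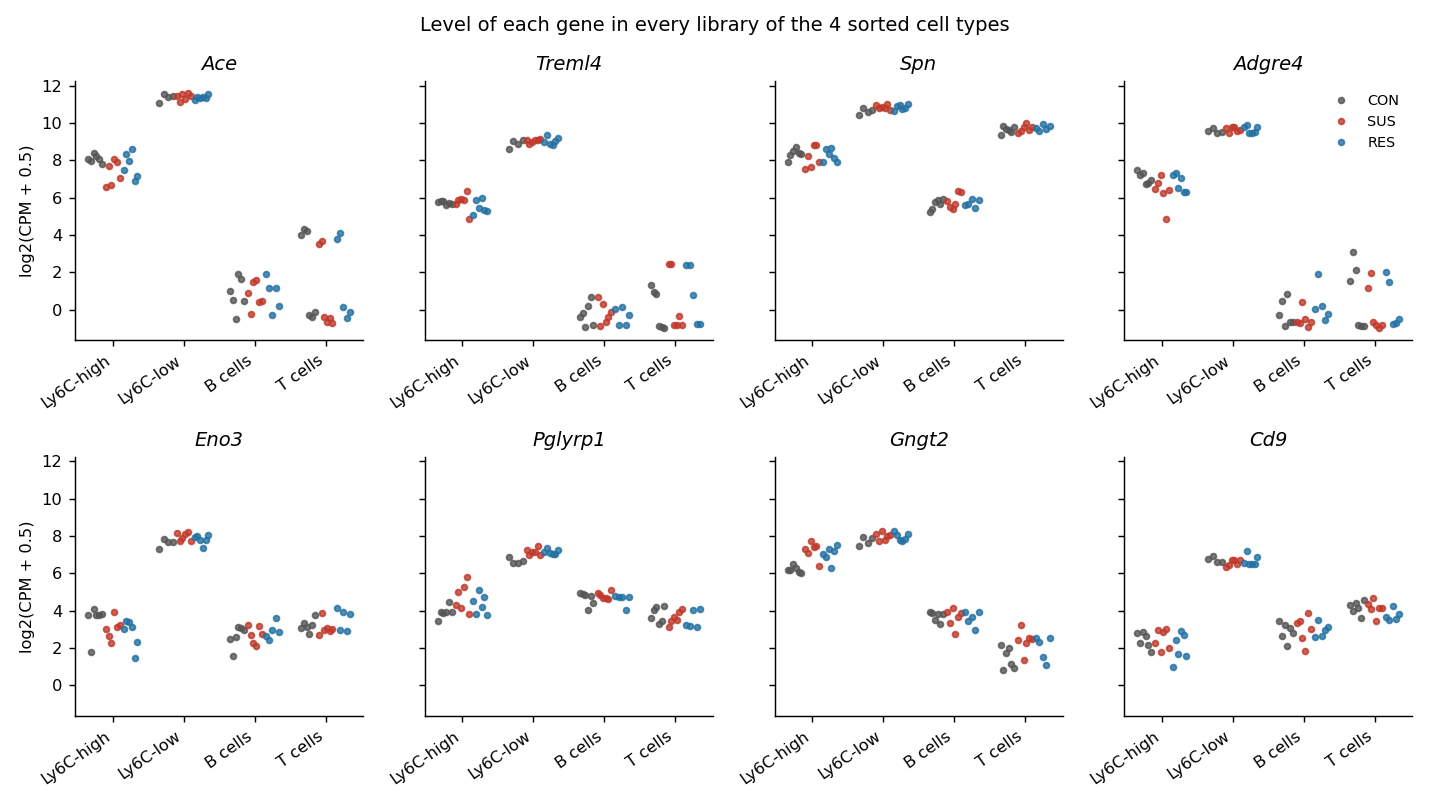
Levels of the 8 genes in the 68 libraries as log2(CPM + 0.5), with 1 point per library, the 4 sorted cell types on the horizontal axis and colours for CON, SUS and RES mice. Each gene was highest in Ly6Clow monocytes, and Spn came second in T cells. Gngt2 was the only gene whose Ly6Clow and Ly6Chigh points overlapped, and the share of all genes without such overlap was not counted.

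Per kilobase of exon, the order of the mean levels in Ly6Clow monocytes was Ace (508 CPM per kb), Spn (382), Treml4 (259), Adgre4 (228), Eno3 (133), Gngt2 (130.1), Pglyrp1 (72.0) and Cd9 (49.4). Neighbours in this order overlapped in their ranges over the 16 libraries, except that every library had more Adgre4 (199 CPM per kb or more) than the highest had Eno3 (171). In Ly6Chigh monocytes the order was Spn (67.4 CPM per kb), Gngt2 (64.7), Ace (43.0), Adgre4 (32.8), Treml4 (25.9), Pglyrp1 (11.9), Eno3 (5.30) and Cd9 (2.38). The mean in Ly6Chigh monocytes was therefore not one fixed share of the mean in Ly6Clow monocytes. It was 34.3% for Gngt2 in CON mice, 14.7% for Pglyrp1, 10.4% for Ace, 6.06% for Eno3 and 4.76% for Cd9. For comparison, Cd300e, a receptor of Ly6Clow monocytes that is no member, was at 0.0922% in the same mice.

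The list of 15 other genes known from patrolling monocytes, also chosen with earlier results of these data known, showed the same direction. Of these, 13 were called higher in Ly6Clow than in Ly6Chigh monocytes, led by Cd300e (log2 fold change 9.69), the fatty acid binding protein Fabp4 (7.14), the integrin Itgax (5.56) and Cd274, which encodes PD-L1 (4.97). Their median was 3.19, close to the 3.06 of the 8 members. Cebpb (0.54, adjusted p = 0.198) and the chemokine receptor Cx3cr1 (0.20, adjusted p = 0.515) were not called. A list of 10 genes for classical monocytes was likewise chosen with earlier results known. All 10 were called lower, against 8.90% of all genes, with Vcan (-8.85), Ly6c2 (-8.43), Fn1 (-8.28) and Mmp8 (-7.58) farthest. Ly6c1 and Ly6c2 encode Ly6C, the antigen that separated the monocytes in the sort, so their direction is no independent result. Transcripts of other leukocytes were also present. The summed level of 6 natural killer cell genes lay between 352 and 1681 CPM in Ly6Clow libraries and between 1.78 and 59.5 CPM in Ly6Chigh libraries, with all 6 called higher. All 5 eosinophil genes, 5 of 6 B cell genes and 3 of 6 T cell genes were called higher as well. The B cell genes summed to between 44.3 and 75.1 CPM in Ly6Clow and between 5.75 and 21.5 CPM in Ly6Chigh libraries, the T cell genes to between 29.6 and 137.5 and between 0.994 and 9.77 CPM, and the eosinophil genes to between 3.75 and 69.1 and between 0 and 11.1 CPM. The part of these transcripts in the levels of the members was not tested.

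Beside these cell type differences, the question of the study was how CSDS changed the transcripts of each population. In Ly6Chigh monocytes, Gngt2 was higher in SUS than in CON mice and was the 1 member called. In Ly6Chigh monocytes, 2.28% of the 16955 genes tested were called higher and 1.17% lower in SUS mice. With the adjusted p-value alone, 2 members were higher, Gngt2 and Pglyrp1, against 8.78% of all genes, and 4 of the 8 members had an unadjusted p under 0.05, against 26.5% of all genes in either direction. The median log2 fold change of the 8 members was -0.03, and that of all genes was -0.05.

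Gngt2 lay between 63.7 and 89.9 CPM in the 6 CON libraries of Ly6Chigh monocytes (median 72.2), between 84.1 and 214 CPM in the 6 SUS libraries (median 162) and between 77.1 and 182 CPM in the 6 RES libraries (median 138). In both stressed groups, 5 of the 6 libraries lay above every CON library, and 1 overlapped the CON range. The mean rose from 74.0 ± 9.23 CPM in CON to 156 ± 43.3 CPM in SUS mice (SD over 6 libraries in both), a log2 fold change of 1.04 (SE 0.19, adjusted p = 0.00168), which ranked 129 of 16955 by p-value. In RES mice it was 135 ± 36.5 CPM, a log2 fold change of 0.85 (SE 0.19, adjusted p = 0.0171), under the fold threshold. The difference between SUS and RES mice was 0.19 (SE 0.19, adjusted p = 0.999).

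The call on Gngt2 lay close to the fold threshold. It was 0.97 with an adjusted p of 4.29e-05 in DESeq2, 0.99 without CON replicate 5, 0.95 without SUS replicate 3 and 0.96 without SUS replicate 5, all under the threshold, and the adjusted p stayed at or below 0.00633 over every single library left out. With the red cell genes as a covariate it was 0.80, with an adjusted p of 0.458, and no member had a lower one in that fit. The red cell genes themselves moved with the groups, as given below, so the covariate and stress cannot be told apart. This limit holds for every value with this covariate in Ly6Chigh monocytes. The share of all genes called in that fit was not counted. Abi3, whose exons share bases with Gngt2 on the opposite strand, moved the same way. Abi3, which encodes an adaptor of the actin cytoskeleton, rose from 29.3 ± 2.15 CPM in CON to 65.6 ± 21.1 CPM in SUS mice (SD over 6 libraries in both), a log2 fold change of 1.13 (SE 0.23, adjusted p = 0.00248). It was 51.9 ± 18.5 CPM in RES mice (log2 fold change 0.81, adjusted p = 0.0397). Whether shared reads tie the 2 genes together was not tested.

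Pglyrp1 lay between 10.3 and 21.4 CPM in CON (median 14.6), between 13.8 and 56.0 CPM in SUS (median 25.6) and between 13.0 and 34.5 CPM in RES mice (median 20.1) in Ly6Chigh monocytes. Of the 6 SUS libraries, 3 lay above every CON library, as did 3 of the 6 RES libraries. This gave a log2 fold change of 0.95 in SUS mice (SE 0.30, adjusted p = 0.0400), just under the fold threshold, and 0.49 in RES mice (SE 0.30, adjusted p = 0.368). Without SUS replicate 5 it was 0.62 (adjusted p = 0.173), and with the red cell genes as a covariate 0.34 (adjusted p = 0.959).

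Ace and Adgre4 had negative values near the adjusted threshold. Ace lay between 225 and 338 CPM in CON (median 272), between 95.7 and 268 CPM in SUS (median 169.9) and between 116 and 384 CPM in RES mice (median 214). Of the 6 SUS libraries, 4 lay below every CON library and 2 within the CON range. Its log2 fold change was -0.70 in SUS (SE 0.27, adjusted p = 0.0895) and -0.27 in RES mice (SE 0.27, adjusted p = 0.615). Adgre4 lay between 105 and 179.9 CPM in CON (median 137), between 28.5 and 149.9 CPM in SUS (median 86.1) and between 79.0 and 161 CPM in RES mice (median 112). Again 4 of the 6 SUS libraries lay below every CON library. Its log2 fold change was -0.67 in SUS (SE 0.26, adjusted p = 0.0951) and -0.26 in RES mice (SE 0.26, adjusted p = 0.615). Both genes crossed the adjusted threshold in SUS mice under some settings, always short of the fold threshold. For Ace the adjusted p was 0.0366 in DESeq2, 0.0439 with at least 10 counts in every library and 0.0432 with only CON and SUS libraries in the fit, and it ranged from 0.0502 to 0.196 over the libraries left out. For Adgre4 it was 0.041 in DESeq2, 0.0438 with at least 10 counts in every library and 0.0412 without SUS replicate 3, the lowest of a range up to 0.2 over the libraries left out. With the red cell genes as a covariate the log2 fold changes were -0.93 for Ace (adjusted p = 0.61) and -0.28 for Adgre4 (adjusted p = 0.964).

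Eno3 had a log2 fold change of -0.59 in SUS (SE 0.38, adjusted p = 0.345) and -0.78 in RES mice (SE 0.38, adjusted p = 0.241), with levels between 2.29 and 16.4 CPM over all Ly6Chigh libraries. Spn (-0.15 in SUS, -0.10 in RES), Treml4 (0.08 and -0.21) and Cd9 (0.10 and -0.31) had adjusted p-values of 0.593 or more. Treml4 was tight in CON mice, at 52.6 ± 3.24 CPM, and wider in SUS mice, at 56.7 ± 17.6 CPM (SD, n = 6 each). Its sign in SUS mice changed with the low-count filter, from 0.08 to -0.01 with at least 10 counts in every library.

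**Figure D3:**
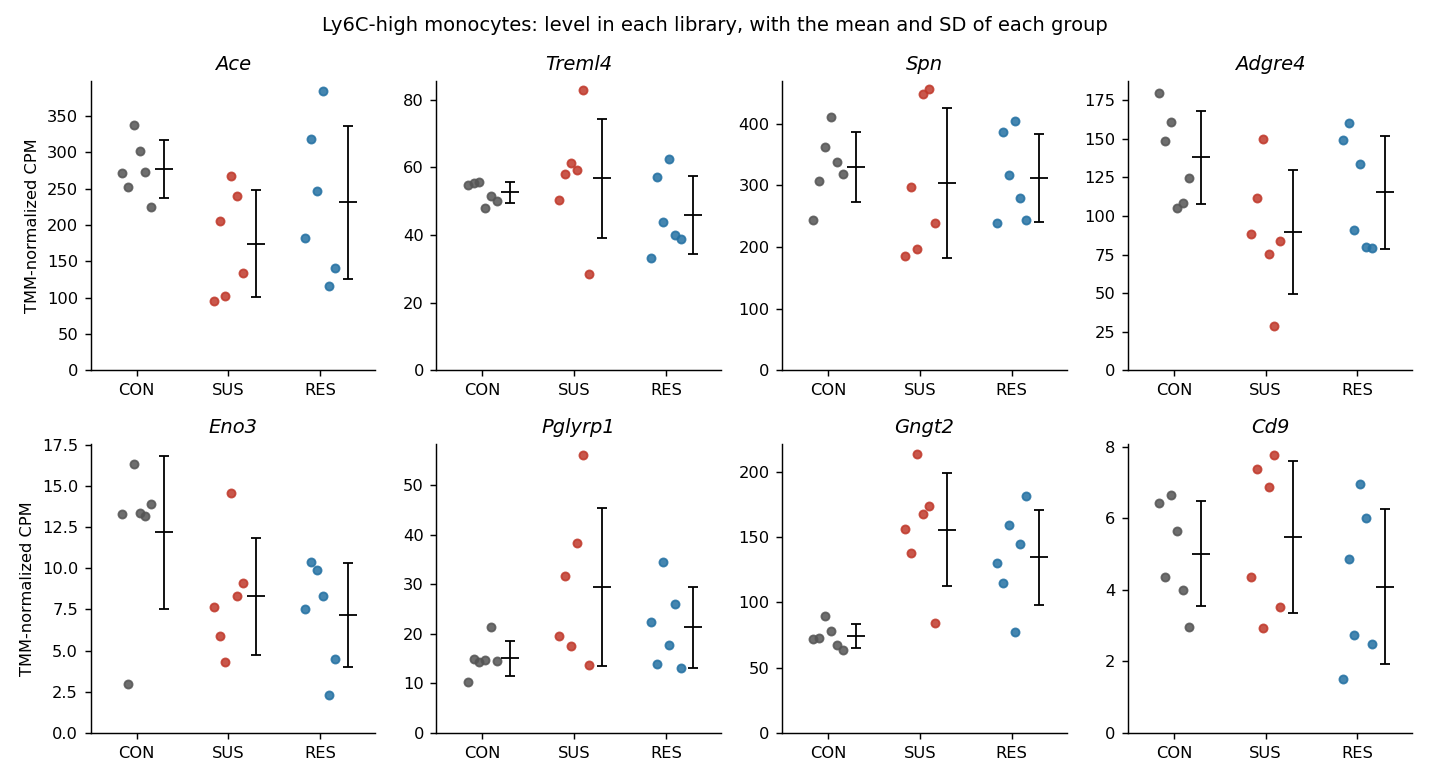
Levels of the 8 genes in Ly6Chigh monocytes as CPM, from 0, with 1 point per library and, beside them, the mean and SD of the 6 CON, 6 SUS and 6 RES libraries. Most Gngt2 points of SUS and RES mice lay above the CON points, whose highest was 89.9 CPM, while the other 7 genes overlapped more widely.

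For RES mice, no member was called in edgeR or in DESeq2, and 1 of 8 (Gngt2) had an unadjusted p under 0.05, against 21.2% of all genes. Of all genes, edgeR called 0.531% higher and 0.466% lower, and 3.71% were higher by its adjusted p-value alone. For DESeq2 the share of all genes called was not counted, here and below. No member separated fully from CON, while 4.68% of all genes lay higher without overlap in SUS mice and 2.85% in RES mice. Between SUS and RES mice, neither edgeR nor DESeq2 called a member. In edgeR, 0 of 8 had an unadjusted p under 0.05 against 3.66% of all genes, and 0% of all genes were called in either direction. Because SUS and RES mice were compared with the same CON libraries, their values share the error of that group.

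Transcripts of other cells moved with the groups in Ly6Chigh monocytes. The summed level of 6 red cell genes, such as the haemoglobins and the membrane anion exchanger Slc4a1, lay between 343 and 1215 CPM in CON mice, 1097 and 8988 CPM in SUS mice and 1077 and 4348 CPM in RES mice. All 6 were called higher in SUS and 1 in RES mice. The 7 neutrophil genes summed to between 15.7 and 211 CPM in CON mice, 21.8 and 686 CPM in SUS mice and 15.6 and 387 CPM in RES mice. None of the 6 that could be tested was called, and the neutrophil surface marker Ly6g was at most 1.13 CPM. The 6 natural killer cell genes summed to between 5.31 and 59.5 CPM in CON and between 1.78 and 16.9 CPM in SUS mice, with Klrk1 called lower. The 6 platelet genes summed to between 6.15 and 10.4 CPM in CON, 5.86 and 51.3 CPM in SUS and 7.66 and 19.7 CPM in RES mice, and Ppbp, a platelet chemokine, was called higher in SUS mice (log2 fold change 2.31, adjusted p = 0.0326). SUS replicate 5, without which Pglyrp1 lost its adjusted call, held the highest platelet sum and the highest red cell sum. The part of these transcripts in the values of Gngt2, Pglyrp1, Ace and Adgre4 was not tested beyond the red cell covariate.

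The other patrolling genes did not share 1 direction in Ly6Chigh monocytes. Of 15, Fcgr4, an activating receptor for IgG, was called higher and Bcl2, which protects cells from apoptosis, lower in SUS mice. Fcgr4 rose from 7.18 ± 2.04 CPM in CON to 30.6 ± 15.3 CPM in SUS mice (SD over 6 libraries in both), a log2 fold change of 2.05 (SE 0.33, adjusted p = 0.000991). In RES mice it was 1.68 (SE 0.32, adjusted p = 0.0138), the 1 gene of the list called. Bcl2 fell from 9.77 ± 3.43 to 3.62 ± 2.59 CPM in SUS mice, a log2 fold change of -1.48 (SE 0.46, adjusted p = 0.0346). The median of the list was 0.07 in SUS mice. Of the 10 classical monocyte genes, 4 were called higher in SUS mice, namely Hp (1.77), the protease Mmp8 (1.49), Chil3 (1.31) and Vcan (1.26), and Hp (1.37) in RES mice. The list had a median of 0.85 in SUS mice. Mmp8 was singled out by the study on these mice, so its direction is not independent evidence.

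In Ly6Clow monocytes, where the 8 genes were highest, edgeR called none of them in SUS or RES mice, nor did DESeq2. Of the 19521 genes tested in edgeR, 0.0871% were called in SUS and 0.0154% in RES mice. At an unadjusted p under 0.05 there were 4 members in SUS mice (Spn, Eno3, Pglyrp1 and Gngt2) and 2 in RES mice (Spn and Pglyrp1), all higher, against 9.51% and 9.67% of all genes in either direction. The member with the largest value was Pglyrp1. The median log2 fold change of the 8 was 0.18 in SUS and 0.14 in RES mice, against -0.01 over all genes in both.

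Pglyrp1 in Ly6Clow monocytes was at 117, 94.3, 94.1 and 103 CPM in the 4 CON libraries, between 125 and 175 CPM in the 6 SUS libraries (median 139) and between 130.3 and 166 CPM in the 6 RES libraries (median 138). Every stressed library lay above every CON library. Among all genes, 1.13% lay higher without overlap in SUS mice and 1.69% in RES mice. The means were 102 ± 10.8 CPM in CON (n = 4), 143 ± 18.9 in SUS (n = 6) and 142 ± 14.1 in RES mice (n = 6, with SD). Expressed as a log2 fold change, this was 0.48 in SUS mice (SE 0.10, adjusted p = 0.0436), rank 30 of 19521 by p-value, and 0.45 in RES mice (SE 0.10, adjusted p = 0.0981). By the adjusted p-value alone, Pglyrp1 was thus 1 of the 0.159% of genes higher in SUS mice, and no member was among the 0.0154% in RES mice. The adjusted p in SUS mice ranged from 0.0226 to 0.155 over the libraries left out in turn and was 0.105 with only the CON and SUS libraries in the fit. With the red cell genes as a covariate it was 0.556, at a log2 fold change of 0.30. All 6 red cell genes had positive values in SUS mice here too, so the covariate is again not separate from stress.

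Spn in Ly6Clow monocytes was at 1378, 1781, 1515 and 1668 CPM in CON, between 1675 and 2050 CPM in SUS (median 1820) and between 1623 and 2067 CPM in RES mice (median 1861). Of the 6 libraries in each stressed group, 4 lay above every CON library. Its log2 fold change was 0.22 in SUS (SE 0.08, adjusted p = 0.338) and 0.20 in RES mice (SE 0.08, adjusted p = 0.414). Eno3 was at 159, 233, 206 and 207 CPM in CON and between 209 and 297 CPM in SUS mice (median 257), so that 4 of 6 SUS libraries exceeded the CON range, and its log2 fold change was 0.32 (SE 0.13, adjusted p = 0.379). Gngt2 was at 177, 245, 200.2 and 241 CPM in CON and between 209 and 306 CPM in SUS mice (median 263), and its log2 fold change was 0.24 (SE 0.12, adjusted p = 0.512). The first CON library was the lowest of the 4 for Spn, Eno3 and Gngt2, and the highest for Pglyrp1.

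Ace differed least, with means of 2653 ± 345 CPM over the 4 CON, 2745 ± 332 over the 6 SUS and 2654 ± 202 over the 6 RES libraries (SD). Its log2 fold changes were 0.04 in SUS (SE 0.09) and -0.03 in RES mice (SE 0.09). Adgre4 (0.08 and 0.06), Treml4 (0.14 and 0.13) and Cd9 (-0.15 and -0.05) had adjusted p-values of 0.721 or more. Between SUS and RES mice, edgeR and DESeq2 called 0 members. In edgeR, 0 had an unadjusted p under 0.05 against 3.79% of all genes, and 0% of all genes were called.

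**Figure D4:**
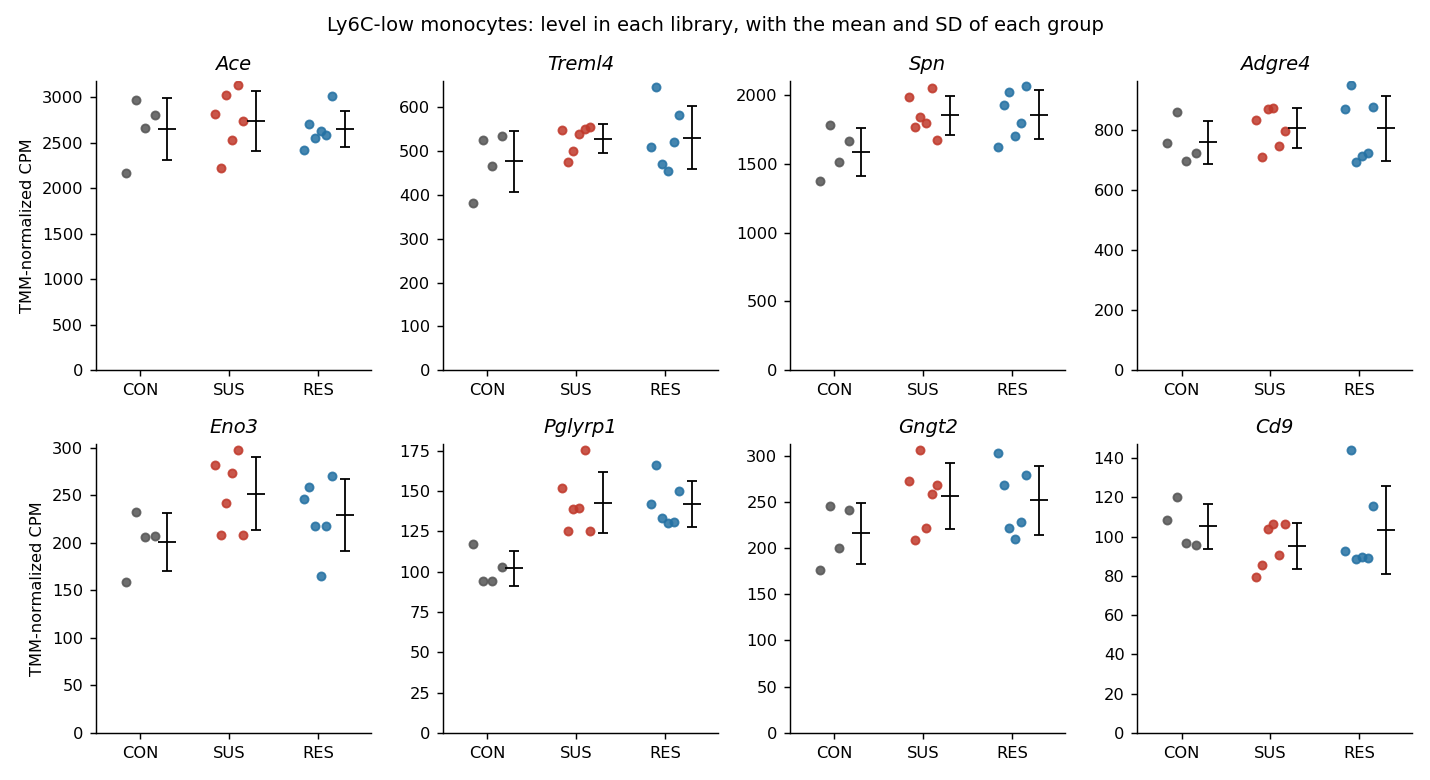
Levels of the 8 genes in Ly6Clow monocytes as CPM, from 0, with 1 point per library and, beside them, the mean and SD of the 4 CON, 6 SUS and 6 RES libraries. The groups overlapped for every gene except Pglyrp1, whose highest CON library was at 117 CPM and lowest stressed library at 125 CPM.

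Transcripts of other cells were also present in the Ly6Clow libraries. The 6 red cell genes summed to between 295 and 1259 CPM in CON mice, 859 and 2691 CPM in SUS mice and 877 and 3919 CPM in RES mice, and none was called. The 7 neutrophil genes summed to between 1.54 and 29.0 CPM in CON mice, 9.39 and 69.1 CPM in SUS mice and 2.34 and 28.0 CPM in RES mice, and Ly6g was at 0 in every Ly6Clow library. The 5 dendritic cell genes summed to between 70.8 and 157 CPM in CON, 34.7 and 77.0 CPM in SUS and 43.4 and 105 CPM in RES mice. All 5 had negative values in SUS mice, and the transcription factor gene Zbtb46 was called lower, from a mean of 31.95 CPM in CON to 16.0 CPM in SUS mice (log2 fold change -1.0, SE 0.20, adjusted p = 0.0260). Neutrophils also store the product of Pglyrp1, and the part of the red cell, neutrophil and dendritic cell transcripts in the values of the members was not tested beyond the red cell covariate. None of the 15 other patrolling genes and none of the 10 classical genes was called in Ly6Clow monocytes in any of the 3 comparisons.

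The stress differences of the 2 monocyte populations were then compared directly with an interaction term, which tests whether the change in Ly6Clow monocytes differs from that in Ly6Chigh monocytes. No member reached an adjusted p under 0.05 in edgeR, while 0.363% of the 24248 genes did for SUS mice and 0.099% for RES mice. At an unadjusted p under 0.05 there was 1 member for each, Gngt2 in SUS mice and Eno3 in RES mice, against 14.2% and 11.7% of all genes. For Gngt2 the log2 fold change of SUS against CON mice was 0.83 lower in Ly6Clow than in Ly6Chigh monocytes (difference -0.83, SE 0.36, adjusted p = 0.268). Eno3 (difference 0.88, SE 0.44, adjusted p = 0.361), Ace (0.72, SE 1.14, adjusted p = 0.917) and Adgre4 (0.71, SE 0.98, adjusted p = 0.877) had positive differences in SUS mice. Pglyrp1 had a difference of -0.49 in SUS (SE 0.33, adjusted p = 0.563) and -0.03 in RES mice (SE 0.33, adjusted p = 1). For RES mice, the difference of Eno3 was 0.95 (SE 0.45, adjusted p = 0.386). A fit of the monocyte libraries alone gave smaller standard errors for some members, most of all Treml4 (0.22 against 0.90 in SUS mice), Ace and Adgre4. There, 3 of 8 members in SUS and 2 in RES mice had an unadjusted p under 0.05, against 13.4% and 10.2% of 21178 genes. In SUS mice these were Gngt2 (difference -0.79, SE 0.24, adjusted p = 0.151), Ace (0.75, SE 0.34, adjusted p = 0.332) and Adgre4 (0.74, SE 0.34, adjusted p = 0.334), and in RES mice Eno3 (0.96, SE 0.46, adjusted p = 0.472) and Gngt2 (-0.63, SE 0.24, adjusted p = 0.36). In the fit of the monocytes alone, 0.00944% of all genes passed the adjustment for SUS and 0% for RES mice. No member passed the adjustment in either fit, so a difference between the populations was not shown for any of the 8 genes. The red cell sum was highest at the same replicate number in both populations of SUS mice (replicate 5, 8988 and 2691 CPM) and of RES mice (replicate 2, 4348 and 3919 CPM), though not of CON mice. Replicate numbers only follow library order, so this match does not pair libraries. The methods stained trunk blood with the antibodies for all the populations together. Libraries of different populations therefore probably come from the same mice, which the labels do not state. Neither these fits nor those between cell types take this into account. Bcl2, of the other patrolling genes, had a difference of 1.72 in SUS mice (SE 0.43, adjusted p = 0.0479).

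**Figure D5:**
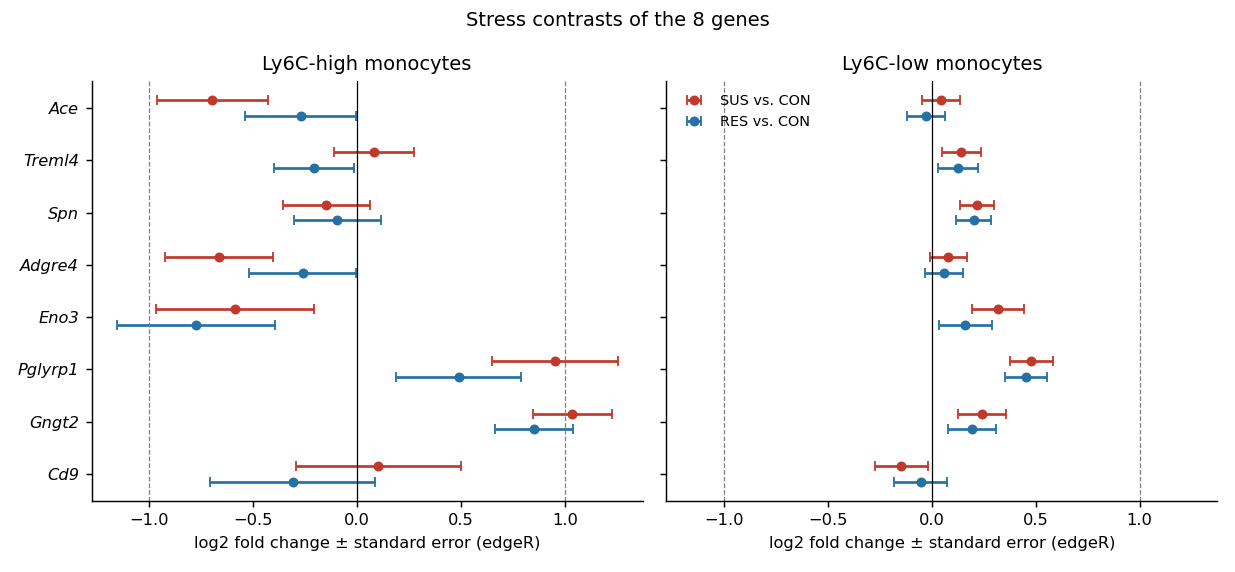
Log2 fold changes of the 8 genes for SUS vs. CON (red) and RES vs. CON (blue) in Ly6Chigh (left) and Ly6Clow monocytes (right), with bars for the standard error of the edgeR fit and dashed lines at a log2 fold change of 1 in either direction. Only Gngt2 in SUS mice passed the line, at 1.04 in Ly6Chigh monocytes, and the Ly6Clow values lay between -0.15 and 0.48.

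In B cells edgeR and DESeq2 called no member, and 0 of 8 had an unadjusted p under 0.05 in each of the 3 comparisons, against 3.42% of all genes for SUS against CON, 3.18% for RES against CON and 1.36% for SUS against RES mice. Of all genes, edgeR called 0.00568% for SUS against CON mice, 0% for RES against CON and 0% for SUS against RES mice. The members that B cells express most were Spn, at a mean of 50.2 (CON), 58.8 (SUS) and 52.3 CPM (RES), and Pglyrp1, at 25.2, 28.0 and 24.3 CPM. Ace, Treml4 and Adgre4 averaged at most 1.57 CPM in every group of B cells.

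In T cells likewise no member was called in edgeR or DESeq2. Of all genes, edgeR called 0.0265% for SUS against CON mice, 0% for RES against CON and 0% for SUS against RES mice. Gngt2 was the 1 member with an unadjusted p under 0.05, in SUS against CON mice, where 4.80% of all genes had one. There was none among the 4.11% for RES against CON or the 2.39% for SUS against RES mice. It lay between 1.28 and 3.99 CPM in CON and between 2.08 and 8.84 CPM in SUS mice, and 5 of 6 SUS libraries lay above every CON library. Its log2 fold change was 1.05 (SE 0.40, adjusted p = 0.709). Spn, the member that T cells express most, averaged 796 (CON), 839 (SUS) and 867 CPM (RES), without a call (log2 fold changes 0.07 and 0.12, adjusted p = 0.999 and 1). Without libraries 53 to 59, T cells again gave 0 calls.

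The protein-coding genes whose levels over the 68 libraries were most like the mean profile of the 8 members were Il31ra (Pearson's r = 0.98), Pparg (0.98), Tgm2 (0.98), Tcf7l2 (0.97), Tgm3 (0.97), Stk10 (0.96), Sstr4 (0.96) and S1pr5 (0.96). The points share the 4 cell types, so r describes mainly the contrast of Ly6Clow monocytes with the others. The choice of genes changed with the pseudocount. With 0.1 CPM in place of 0.5 CPM, 5 of these 8 genes stayed among the 8 most alike, which Cd300ld4 and Cd300ld3 then led, while 7 of 8 stayed with 1 CPM and with a mean of at least 10 CPM. Pparg, a lipid-sensing nuclear receptor, averaged 87.2 CPM in Ly6Clow monocytes, 4.30 in Ly6Chigh monocytes and, in lymphocytes, 0.0212 (B cells) and 0.0663 (T cells). Stk10, a kinase abundant in lymphocytes, was high in all 4, at 1972, 894, 439.8 and 539 CPM in the same order. Of the members themselves, Treml4 lay closest to their mean profile (r = 0.95), followed by Ace (0.93), and Spn lay farthest (0.72).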

How the data were processed

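RNA of sorted cells was sequenced as paired-end libraries made with the SMARTer Stranded Total RNA-Seq Pico kit. The authors mapped reads to mm10 with HISAT2 and counted them per Ensembl gene with htseq-count. The authors deposited raw counts, not normalized, with 1 column for each of 70 libraries. How multiply mapped reads and duplicates were handled is not given in the sources used here, and without molecular identifiers reads are not independent molecules. Groups were taken from the sample labels.

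Identifiers were matched to GENCODE M21, which held 52403 of 52636 genes. The 8 members and all gene lists were chosen with earlier results of these data known. Libraries 52 and 70 were left out. The tests were run in R 4.3.3, mainly edgeR 4.0.16 (TMM, filterByExpr, robust quasi-likelihood F test), limma 3.58.1 and, as an alternative, DESeq2 1.42.0. The authors used another version of DESeq2. Shares of all genes are from edgeR fits, and none was counted for DESeq2. The CON, SUS and RES libraries of a cell type were fitted together, and cell types and interactions were compared in 1 fit of 12 group means. P-values are two-sided and adjusted by Benjamini-Hochberg over all genes tested. Interactions were called by the adjusted p alone. Each SE was derived from the log2 fold change and F as the ratio of its size to the root of F.

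Named were all members, up to 4 called genes per list with the largest changes, markers that moved with a group, and the 8 genes most like the mean z score of the members (log2 of CPM + 0.5, mean of at least 1 CPM). Abi3 was named after its values were seen. Alternatives were DESeq2, its size factors, other low-count filters, fewer groups in the fit, the adjusted p alone, mitochondrial, haemoglobin and ribosomal RNA genes left out, a red cell covariate, single conditions, libraries 52 and 70 kept, and each library left out. Leaving out T cell libraries 53 to 59 was added after seeing the data. The tests were checked on simulated data.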

Additional observations from a re-analysis of the deposited data

Results flagged for a closer look

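Each of the 8 genes was checked in each of the 12 groups for 1 library far from the rest of its group. Of 96 groups of genes and libraries, 5 held such a library, and chance alone flags about 5% of them. In B cells, Adgre4 was at 0.820 CPM in SUS replicate 3, where the next highest was at 0.207 CPM, and at 3.27 CPM in RES replicate 2, where the next was at 0.671 CPM. Pglyrp1 was at 15.9 CPM in RES replicate 4 of B cells, below the next lowest at 25.9 CPM. Eno3 was at 2.97 CPM in CON replicate 2 of Ly6Chigh monocytes, below the next lowest at 13.2 CPM. It was at 14.4 CPM in SUS replicate 2 of T cells, above the next at 7.91 CPM.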

How the results depend on the processing

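The cell type calls were the firmest. All 8 members were called higher in Ly6Clow monocytes against each cell type in DESeq2 and with only the compared cell types in the fit, while Spn against T cells and Gngt2 against Ly6Chigh monocytes crossed the fold threshold as given above. In Ly6Chigh monocytes of SUS mice, the count of 1 called member became 2 with the adjusted p alone, and 0 with at least 10 counts in every library, with DESeq2, with its size factors and with the red cell covariate. It ranged from 0 (without SUS replicate 5) to 2 (without SUS replicate 1 or 6) over the libraries left out. Without CON replicate 5 or SUS replicate 3 it stayed at 1, although Gngt2 lay under the fold threshold there. The member called in these fits was therefore not Gngt2. The log2 fold change of Gngt2 was 0.95, 0.97, 0.97 and 0.80 in those 4 settings and 0.95 to 1.14 over the libraries left out. With the adjusted p alone, 1 member was called in Ly6Chigh monocytes of RES mice and 1 in Ly6Clow monocytes of SUS mice, where 0 were called with the fold threshold.

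The sign changed in some values near 0. In Ly6Chigh monocytes, Treml4 in SUS mice went from 0.08 to -0.007 with at least 10 counts in every library and to -0.34 with the red cell covariate, and ranged from -0.10 to 0.20 over the libraries left out. Adgre4 in RES mice went from -0.26 to 0.13 with the red cell covariate. Over the libraries left out, Cd9 in SUS mice ranged from -0.057 to 0.24 in Ly6Chigh monocytes, and in Ly6Clow monocytes Ace ranged from -0.049 to 0.10 in SUS and -0.12 to 0.031 in RES mice and Cd9 from -0.17 to 0.013 in RES mice. The difference between the monocytes ranged from -0.10 to 0.18 for Treml4 in SUS mice and from -0.15 to 0.17 for Pglyrp1 in RES mice. The cause of these changes was not tested. No paired analysis was possible because the groups share no replicate that the labels tie to 1 mouse. At 19769835 counts or more per library, depth limits mainly Ace, Treml4 and Adgre4 in lymphocytes, which lay near or under 1 CPM in many libraries.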

Other observations

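In T cell libraries 53 to 59, Treml4 was at 2.05, 1.45 and 1.32 CPM in the 3 CON libraries, 4.96 and 4.91 CPM in the 2 SUS libraries and 4.67 and 4.85 CPM in the 2 RES libraries. All 4 stressed libraries were higher than the 3 CON libraries. Ace and Adgre4, which also split by library number, did not share this separation. In the same libraries Ace lay between 15.61 and 19.72 CPM in CON and between 10.91 and 16.74 CPM in stressed mice. Adgre4 overlapped, between 2.373 and 7.902 CPM in CON and between 1.782 and 3.565 CPM in stressed mice. In libraries 60 to 69 Treml4 was at most 0.0416 CPM in CON mice and 1.20 CPM in 1 RES library. The separation of Treml4 was noticed after the values were seen and was not tested. How many of all genes separate in the same way was not counted.

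Fcgr4 in Ly6Clow monocytes averaged 154 ± 48.3 CPM over the 4 CON, 299.6 ± 58.8 over the 6 SUS and 251 ± 44.0 over the 6 RES libraries (SD). Its log2 fold change in edgeR was 0.96 in SUS (adjusted p = 0.0661) and 0.68 in RES mice (adjusted p = 0.253). It was thus close to both thresholds in SUS mice but was not called in either, against 0.0871% and 0.0154% of all genes.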
